A study of Mus musculus with 21 samples.

Results

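The matrix metalloproteinases (MMPs), the ADAMTS proteases and the tissue inhibitors of metalloproteinases (TIMPs) were followed in 21 mouse mammary tumours. Members were the genes of the count table whose symbol began with Mmp or Adamts and a digit, or was Timp1, Timp2, Timp3 or Timp4. The rule found 46 of the 24028 genes in the table: 23 MMP genes, 19 ADAMTS genes and 4 TIMP genes. The tumours came from WAP-Cre/PIK3CA-H1047R mice, so treated and control animals alike carried the transgenes. Cre recombinase under the whey acidic protein promoter is active in milk-producing mammary epithelium, where it switches on a mutant form of the PI3K-alpha catalytic subunit. The vehicle group (7 tumours) received DMSO. The 2 treated groups received BYL719, also called alpelisib, a PI3K-alpha inhibitor, and were labelled BYL719_Relapse (7 tumours, called relapse here) and BYL719_Stable (7 tumours, called stable). The design text of the series speaks of responding tumours where the labels say relapse, and the relation of these words is not stated. Dose, duration, age and strain are not given in the labels.

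MMPs, ADAMTS proteases and TIMPs set how the material between cells is cut and rebuilt. MMPs and ADAMTS proteases share a zinc-dependent catalytic domain. MMPs, secreted or held at the cell surface, cut collagens, gelatin, elastin and basement membrane. ADAMTS proteases carry thrombospondin repeats and cut proteoglycans such as versican and aggrecan, the ends of procollagens, or components of microfibrils. TIMPs bind the active site of these enzymes and block it. Most of these enzymes are made as inactive precursors, so an mRNA level is not an activity. In mammary tumours they are made by fibroblasts, macrophages, neutrophils, endothelial and myoepithelial cells as well as by tumour cells.

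The total count of a library lay between 21043399 and 24873844 for vehicle, between 17722622 and 21431465 for relapse, and between 13337848 and 24648463 for stable tumours. The summed level of 9 luminal epithelial markers, the epithelium the model targets, was 2030 to 5876 CPM (read counts scaled to library size) over all tumours. Vehicle 2, 6 and 7 stood apart. Their summed basal and myoepithelial markers (12 genes) were 18765, 24603 and 11173 CPM, against 1290 to 5773 in the other vehicle tumours, 1017 to 2381 among relapse tumours and 309 to 1566 among stable ones. Their 4 measured neutrophil markers summed to 7.09, 9.43 and 17.3 CPM, against 123 to 388 in the other vehicle tumours, while 6 further neutrophil markers were too low to test. Their fibroblast marker sums, 11654, 8304 and 6136 CPM, were the highest of the group, against 2121 to 6059 in the other vehicle tumours. So were their endothelial sums, at 436, 356 and 191 CPM against 126 to 167. Skeletal muscle markers were called higher in relapse than in vehicle tumours for 12 of 13 genes (92.3%) and in stable tumours for 7 of 13 (53.8%), where 5.42% and 6.9% of all genes were called higher. Without vehicle 2, 6 and 7 only Casq1 was called in relapse and none in stable tumours, while the median log2 fold changes of this list were 4.44 and 2.54. The list had sums of 191 to 7946 CPM in relapse and 215 to 569 CPM in vehicle tumours. Of 11 fibroblast markers Mfap5 and Fbln1 were called higher in each treated group (18.2%, beside 5.42% and 6.9% of all genes). Dcn was called lower in stable tumours (9.09%, beside 8.16%). Without vehicle 2, 6 and 7 Fbln1 lost its call there and Dcn was at 0.94, with list medians of 1.09 and 1.15. Basal and myoepithelial markers were called lower for 7 of 12 genes (58.3%) in each, beside 5.8% and 8.16% of all genes. Without the 3 vehicle tumours only Krt17 was called, in stable tumours. Titles also carry a code. The 7 vehicle titles hold 3 different codes, the relapse titles 7 and the stable titles 4. The labels do not say that a code is an animal. Tumours that share a code may share a source, and nothing states that tumours of a group came from separate animals. P-values therefore measure the spread between these tumours.

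Of the 46 members, 40 had enough reads to be tested: 19 MMP, 17 ADAMTS and 4 TIMP genes. The other 6, Adamts13, Adamts19, Mmp1a, Mmp1b, Mmp20 and Mmp21, had between 11 and 130 reads each over the 21 tumours together. Levels between genes were compared as CPM per kilobase of gene width (RPKM). On that scale Timp3, an inhibitor that binds the matrix, had the highest mean over all tumours, at 153 RPKM. Mmp14, a collagenase of the cell membrane, followed with 90.7. Next were Mmp12, the macrophage elastase, at 82.7, Mmp2, a gelatinase, at 67.9, and Timp2, which takes part in the activation of Mmp2 by Mmp14, at 66.7. Mmp3 (27.4), Mmp13 (26.8), Adamts1 (23.3), Mmp15 (19.8) and Timp1 (17.9) completed the first 10. The order at the top rested on a few tumours, since the mean of Timp3 was 304 ± 337 RPKM (SD, n = 7) in vehicle but 84.4 ± 31.3 in relapse and 69.8 ± 14.9 in stable tumours. In relapse tumours Mmp14, at 105 ± 45.3 RPKM, and Mmp12, at 93.9 ± 33.2, differed from Timp3 by less than their spread. The lowest of the tested members was Mmp24, at 0.166 RPKM.

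Against vehicle, 9 of the 40 tested members (22.5%) were called in relapse tumours, where 11.2% of all 15792 genes tested were called. Here a gene counts as called, rising or falling, where the adjusted p is below 0.05 in edgeR's quasi-likelihood F test with Benjamini-Hochberg adjustment over all genes. Adamts6, Adamts12, Adamts16, Mmp11 and Timp1 rose, 5 members beside 5.42% of all genes called higher. Adamts1, Adamts8, Mmp16 and Mmp17 fell, 4 members beside 5.8% of all genes called lower. In stable tumours 8 of 40 members (20%) were called against vehicle, beside 15.1% of all genes. Adamts6 and Adamts12 rose (6.9% of all genes were called higher), and Adamts1, Adamts8, Adamts9, Adamts17, Mmp17 and Timp3 fell (8.16% called lower). Both comparisons use the same 7 vehicle tumours and are not independent of each other. Over the 40 members the median log2 fold change was 0.37 in relapse and -0.12 in stable tumours, beside -0.02 and -0.005 over all genes. Between relapse and stable tumours no member and 0% of all genes were called.

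**Figure D1:**
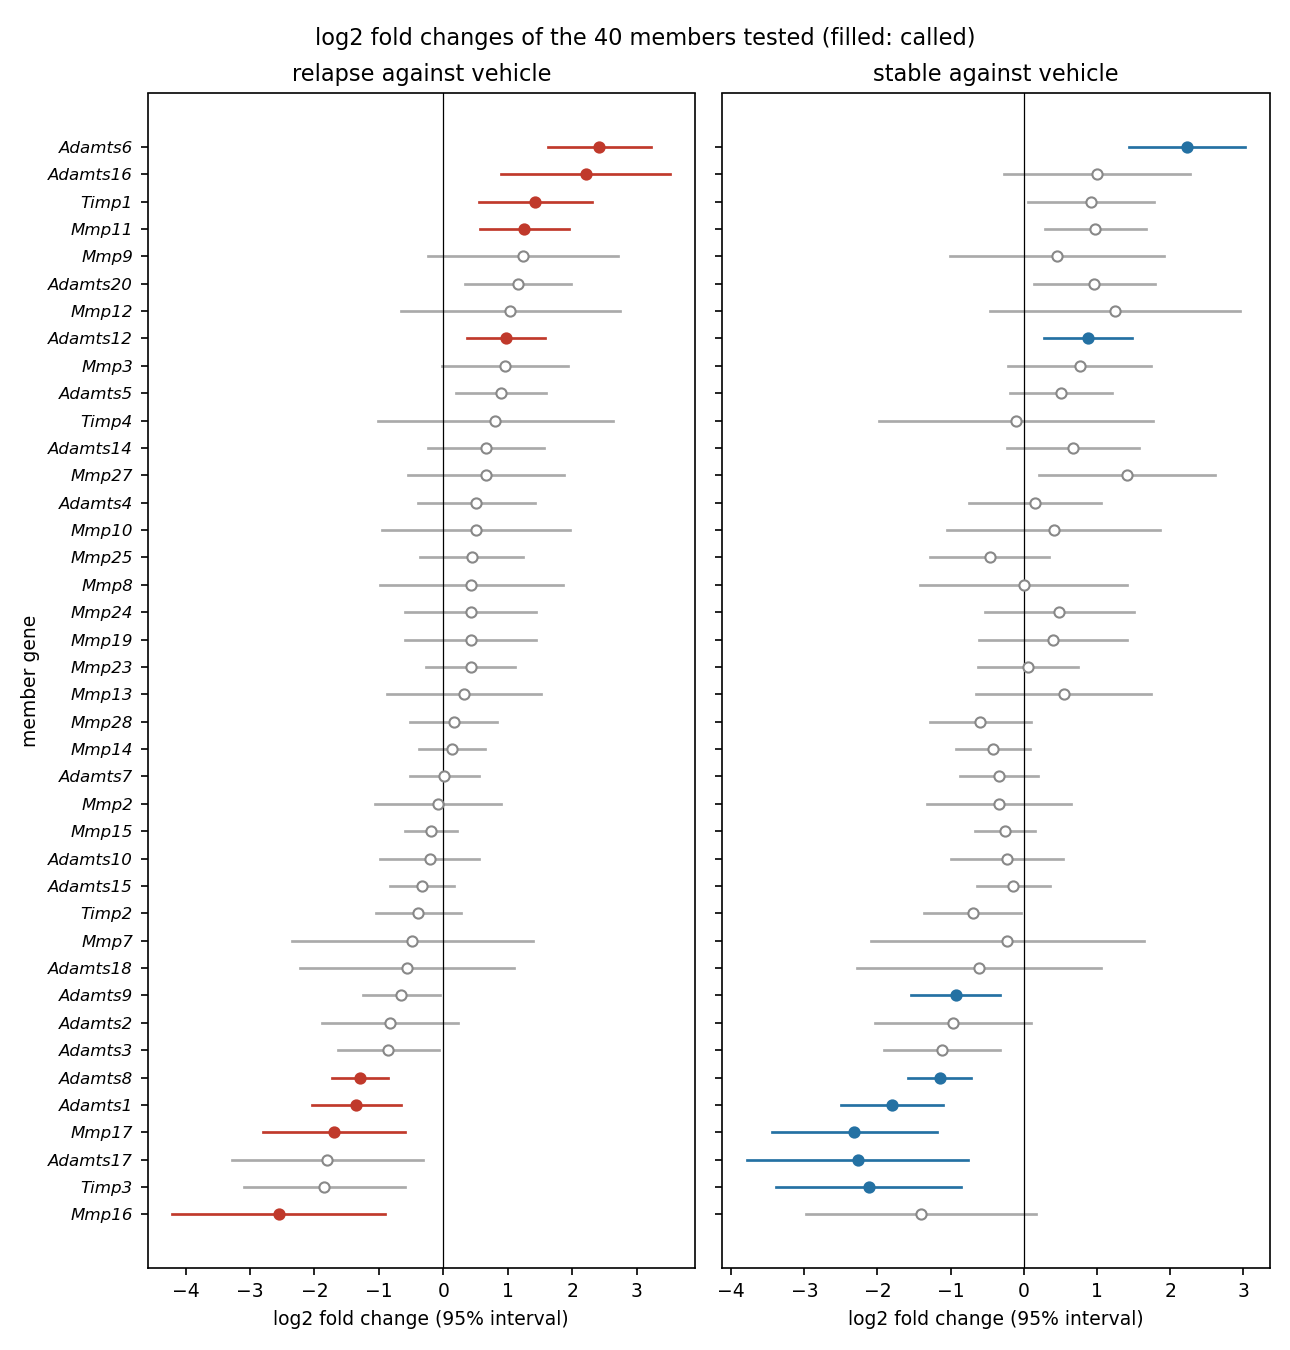
log2 fold change (x axis, with 95% intervals) of each of the 40 tested members (y axis), relapse against vehicle on the left and stable against vehicle on the right; filled symbols are called members. Adamts6 lies highest on both sides, and Mmp16 lowest on the left.

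Most of these calls were lost when vehicle 2, 6 and 7 were left out. Then 3 members were called in relapse tumours, beside 3.28% of 16081 genes, and 3 in stable tumours, beside 5.27%. They were Adamts6, Adamts8 and Adamts1 in each. That fit also has fewer vehicle tumours, and the lost calls did not all lose their size. In relapse tumours the log2 fold change was 1.40 for Timp1, 1.62 for Adamts16, 1.04 for Mmp11 and 0.81 for Adamts12. Mmp16 (-0.47) and Mmp17 (-0.08) shrank there. In stable tumours Adamts12 was at 0.71, Adamts9 (-0.31) and Mmp17 (-0.69) shrank, and Timp3 (0.55) and Adamts17 (0.15) turned in sign. The number of genes called in that fit depended on stable 1. When it was also left out, a fit added after seeing the data, 11.5% of 16055 genes were called in relapse and 13.7% in stable tumours. The same 3 members were then called in each, joined in relapse tumours by Adamts7, Adamts20 and Timp3, all higher, and in stable tumours by Mmp19, also higher. Adamts6, Adamts8 and Adamts1 were also called in all 14 fits that left out 1 tumour of the groups compared and in all 9 other alternatives, in each comparison. Fits that used the title codes kept these 3 genes, lost others and added Timp3 in relapse (summed counts) and Adamts3 in stable tumours (voom). With counts summed per code, Adamts12, Adamts16, Mmp11, Mmp16 and Timp1 were not called in relapse, nor Adamts9, Adamts12 and Adamts17 in stable tumours. Summing left 3 vehicle, 7 relapse and 4 stable units, so calls lost there cannot be credited to shared codes alone. With the code as a random effect in voom, Adamts16, Mmp16, Mmp17 and Timp1 were not called in relapse, nor Adamts9, Adamts17, Mmp17 and Timp3 in stable tumours. The within-code correlation in the voom fit was -0.04, so it made almost no correction for shared codes. No voom fit without the code was run, so the calls kept or lost there cannot be credited to the codes. With the 3 vehicle tumours left out, the members' medians were 0.51 and 0.27, beside 0.02 and 0.05 over all genes tested. The part of myoepithelial, neutrophil, fibroblast and endothelial marker levels in the other calls was not tested. In bulk tissue, fewer cells of a type and less RNA per cell cannot be told apart.

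**Figure D2:**
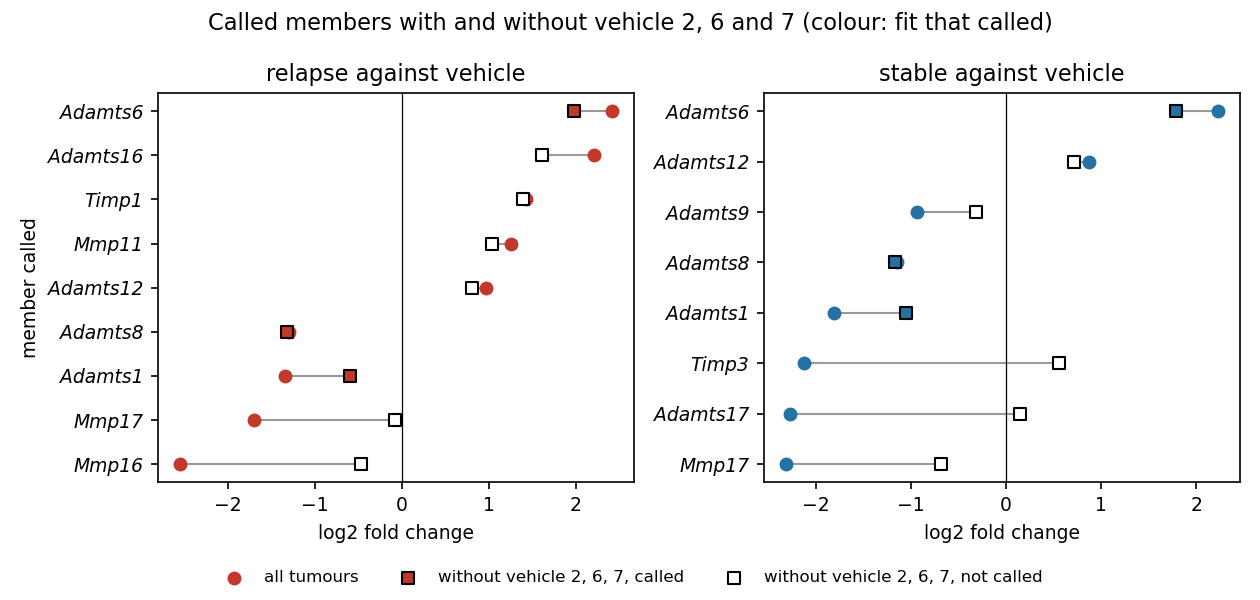
log2 fold change (x axis) of each called member (y axis) in the fit of all 21 tumours (circles) and without vehicle 2, 6 and 7 (squares, filled where still called), for each treated group against vehicle. Adamts6 and Adamts8 move little, Adamts1 moves toward 0, and Timp3 and Adamts17 cross 0 in stable tumours.

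Of the 17 tested ADAMTS genes, 29.4% were called in relapse and 35.3% in stable tumours, beside 11.2% and 15.1% of all genes. Among them, Adamts6 (chr13:104286518-104496695, GRCm38.p6) had the highest log2 fold change of the 40 members in both comparisons. The protein is known for cutting microfibril and cell adhesion components and is close in sequence to Adamts10. Its level was 3.02, 7.18 and 15.0 CPM in the lowest, median and highest vehicle tumour. In relapse tumours these were 16.7, 42.7 and 69.5 CPM, and in stable tumours 11.8, 34.4 and 60.1 CPM. All relapse tumours thus lay above all vehicle tumours, 1 of 2 members (5%) with groups that did not overlap, beside 3.01% of all genes. Stable 1, the lowest stable tumour, lay inside the vehicle range, and the other 6 stable tumours lay above it. The log2 fold change was 2.42 ± 0.38 (SE; adjusted p = 0.00143, edgeR) in relapse and 2.23 ± 0.38 (adjusted p = 0.00128) in stable tumours. It was 1.98 and 1.79 with vehicle 2, 6 and 7 left out. Relapse 4 had the highest level of all tumours and the lowest skeletal muscle sum of its group, 191 CPM, below all vehicle tumours. Relapse 4 also had the highest fibroblast marker sum of its group (9230 CPM), as stable 5, the highest stable tumour for Adamts6, had of its own (10638 CPM). The tumour vehicle 2, at 11654 CPM, had the highest fibroblast sum of all and the lowest Adamts6. The part of fibroblasts in the group difference was not tested.

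Adamts8 and Adamts1 both belong to the ADAMTS proteases that cut versican and aggrecan, and both are known as inhibitors of new vessel growth. Adamts8 (chr9:30942562-30963838) had a lowest, median and highest level of 6.98, 12.7 and 19.2 CPM in vehicle, 3.79, 5.14 and 8.01 in relapse and 4.68, 5.56 and 8.26 in stable tumours. Its groups overlapped through vehicle 7, the lowest vehicle tumour, and the other 6 vehicle tumours lay above every treated tumour. In log2 terms the change was -1.29 ± 0.21 (adjusted p = 0.00151, edgeR) in relapse and -1.15 ± 0.21 (adjusted p = 0.00181) in stable tumours, and -1.32 and -1.16 without vehicle 2, 6 and 7. An antisense gene absent from the table, Gm29724, shares exon sequence with Adamts8, and whether counting used strand is not given.

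Adamts1 (chr16:85793827-85803113) had levels of 105, 122 and 627 CPM in vehicle, 55.2, 86.3 and 97.7 in relapse and 46.6, 58.8 and 71.2 in stable tumours. No treated tumour reached the lowest vehicle tumour in either comparison. In stable tumours it was the sole member with groups that did not overlap (2.5% of members, beside 2.87% of all genes). The fitted log2 fold change was -1.35 ± 0.33 (adjusted p = 0.0133, edgeR) in relapse and -1.80 ± 0.34 (adjusted p = 0.00215) in stable tumours. Vehicle 2 set part of its size: without that tumour the values were -0.74 and -1.19, and both calls stood. With vehicle 2, 6 and 7 left out they were -0.60 (adjusted p = 0.0494) and -1.05 (adjusted p = 0.00158). Its promoter is shown because it is the only one of these 3 genes with an entry in the RefSeq promoter table (GRCm38.p6). The 250 bases before the start, chr16:85803114-85803363 on the minus strand, hold a TATAAA box on the gene's strand (capitals), as 7.59% of all 32851 starts in the table do. The window lies in no annotated exon.
Adamts1: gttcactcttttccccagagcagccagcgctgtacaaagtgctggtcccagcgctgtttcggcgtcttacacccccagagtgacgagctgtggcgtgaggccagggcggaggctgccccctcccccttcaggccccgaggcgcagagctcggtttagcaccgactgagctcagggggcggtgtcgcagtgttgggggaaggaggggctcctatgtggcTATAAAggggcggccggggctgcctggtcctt

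**Figure D3:**
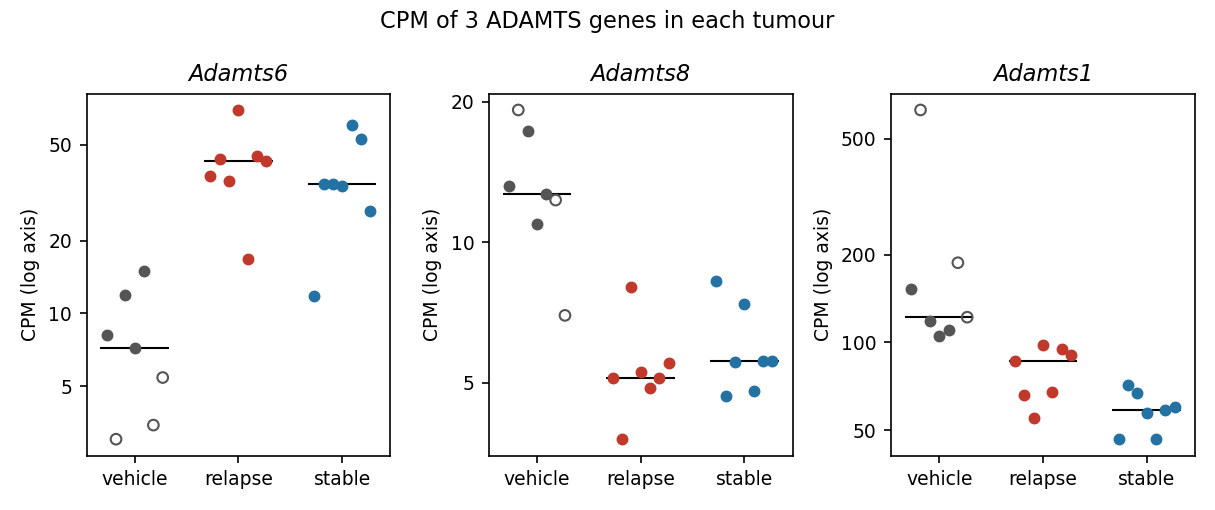
CPM (y axis, log scale) of Adamts6, Adamts8 and Adamts1 in each tumour of the 3 groups (x axis); bars are group medians and open circles are vehicle 2, 6 and 7. Adamts6 is higher and Adamts8 and Adamts1 are lower in most treated tumours, and the filled vehicle points show the same direction as the open ones.

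The other proteoglycan-cutting members did not share one direction. Adamts9, which also cuts versican, fell in stable tumours (45.7 ± 11.8 CPM, SD, n = 7, against 87.3 ± 46.0 in vehicle; log2 fold change -0.93 ± 0.29, adjusted p = 0.0364, edgeR). In relapse tumours it was at 55.7 ± 17.9 CPM (-0.65, adjusted p = 0.152). The call was lost without any of vehicle 2, 3, 6 and 7 and stable 1, 2, 4 and 6, and the value was -0.31 without vehicle 2, 6 and 7. Adamts5, a main aggrecanase of cartilage that lies beside Adamts1 on chromosome 16, was not called: it was at 32.1 ± 11.2 CPM in vehicle, 59.5 ± 38.8 in relapse (0.89, adjusted p = 0.0889, edgeR) and 45.7 ± 21.5 in stable tumours (0.51, adjusted p = 0.305). Relapse 4 (142 CPM) and stable 5 (91.0 CPM) were again its highest tumours. Adamts4, the other main aggrecanase, was at 13.3 ± 6.13, 18.9 ± 13.9 and 14.7 ± 11.5 CPM in vehicle, relapse and stable tumours, and Adamts15 at 95.3 ± 21.2, 75.7 ± 18.6 and 86.4 ± 28.4 CPM. Neither was called. Exons of Adamts4 and of Adamts9 overlap genes of the opposite strand.

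Adamts12, which cuts cartilage oligomeric matrix protein, rose in both treated groups. Levels were 24.8, 32.6 and 68.8 CPM (lowest, median, highest) in vehicle, 44.9, 71.6 and 128 in relapse and 39.7, 74.0 and 115 in stable tumours. The groups overlapped, through vehicle 3 and 5 among others. Against vehicle, the log2 fold change was 0.97 ± 0.29 (adjusted p = 0.0342, edgeR) in relapse and 0.88 ± 0.29 (adjusted p = 0.0449) in stable tumours. In relapse tumours the call was lost without vehicle 1, 2, 4, 6 or 7 or relapse 2, 4 or 6, and in stable tumours without vehicle 1, 2, 4, 6 or 7 or stable 2, 3, 4, 5 or 6. The value stayed between 0.83 and 1.14 in the former and 0.75 and 1.04 in the latter. Adamts7, its nearest relative, was at 26.4 ± 15.1, 26.8 ± 5.98 and 20.9 ± 3.64 CPM in vehicle, relapse and stable tumours and was not called.

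Adamts16 rose in relapse tumours from a low level, 2.81 ± 2.35 CPM in vehicle to 13.1 ± 14.6 in relapse (log2 fold change 2.21 ± 0.63, adjusted p = 0.0281, edgeR). Relapse 4 alone was at 45.1 CPM, where the other relapse tumours were at 2.03 to 13.2. Without relapse 4 the value was 1.45 (adjusted p = 0.0959), and the call was also lost without vehicle 6 or 7. Stable tumours were at 5.64 ± 2.40 CPM (1.00, adjusted p = 0.273).

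Adamts17, known from short stature syndromes, fell in stable tumours, at 7.62 ± 3.64 CPM, against 36.8 ± 47.2 in vehicle (log2 fold change -2.27 ± 0.72, adjusted p = 0.0398, edgeR). Relapse tumours were at 10.6 ± 6.33 CPM (-1.80, adjusted p = 0.105). The 3 tumours vehicle 2, 6 and 7 held 130, 70.7 and 29.6 CPM and the other 4 vehicle tumours 4.71 to 9.58, inside the range of the relapse tumours (3.49 to 22.9). Without these 3 the sign turned in both comparisons, to 0.62 in relapse (adjusted p = 0.570) and 0.15 in stable tumours (adjusted p = 0.905). The call in stable tumours was also lost without vehicle 2, 6 or 7 alone, or without any of stable 2 to 7.

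The procollagen-processing members were not called in the fit of all 21 tumours. Adamts2, which trims fibrillar procollagens, was at 64.3 CPM in the median vehicle tumour, 61.7 in relapse and 57.3 in stable tumours, with 426, 187 and 120 CPM in vehicle 2, 6 and 7. Adamts3, with a similar role, had medians of 45.5, 17.5 and 18.5 CPM in vehicle, relapse and stable tumours, and the groups overlapped. All 7 tumours of each treated group lay below the vehicle median. Its log2 fold change was -1.12 (adjusted p = 0.0505, edgeR) in stable and -0.85 (adjusted p = 0.148) in relapse tumours. In stable tumours it was called with DESeq2 size factors, DESeq2's Wald test, the replicate block and voom with the code. It was not called there without vehicle 2, 6 and 7 (-0.94, adjusted p = 0.223, edgeR). Adamts14 was low, at medians of 1.23, 1.97 and 1.48 CPM. Of the remaining tested ADAMTS members, Adamts10 had group means of 37.6 to 44.1 CPM, Adamts18 of 3.43 to 5.26 and Adamts20 of 2.33 to 5.22, and none was called.

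Of the 19 tested MMPs, 3 (15.8%) were called in relapse and 1 (5.26%) in stable tumours, beside 11.2% and 15.1% of all genes. Mmp11, stromelysin 3, which stromal fibroblasts of breast carcinomas are known to make, rose in relapse tumours. Its levels were 3.04, 5.55 and 10.8 CPM (lowest, median, highest) in vehicle, 9.43, 12.3 and 28.5 in relapse and 4.91, 12.5 and 18.0 in stable tumours. Vehicle 3 and 5 were the vehicle tumours inside the relapse range, and stable 1 was the stable tumour below the vehicle median. The log2 fold change was 1.26 ± 0.33 (adjusted p = 0.0196, edgeR) in relapse and 0.98 ± 0.33 (adjusted p = 0.0504) in stable tumours. In relapse tumours the call stood in all 14 fits without 1 tumour (highest adjusted p = 0.0487), but not without vehicle 2, 6 and 7 (1.04, adjusted p = 0.135) or after summing the tumours of a code (1.26, adjusted p = 0.0547). In stable tumours Mmp11 was called where vehicle 3, vehicle 5 or stable 1 was left out. Its exons overlap Chchd10 on the opposite strand, which was not called (0.81, adjusted p = 0.108 in relapse tumours).

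Mmp16 and Mmp17, both anchored in the cell membrane, fell in relapse tumours, and Mmp17 also in stable tumours. Mmp16 was at 28.1, 49.7 and 65.5 CPM in vehicle 2, 6 and 7, at 2.96 to 8.90 in the other vehicle tumours and at 0.822 to 6.99 in relapse tumours. In log2 terms the change in relapse tumours was -2.56 ± 0.79 (adjusted p = 0.0416, edgeR), and -0.47 (adjusted p = 0.765) without the 3 vehicle tumours. In stable tumours it was -1.41 ± 0.76 (adjusted p = 0.210), with 39.3 CPM in stable 1 and 1.61 to 6.65 in the other 6. Without stable 1 it was -2.62 and called (adjusted p = 0.0138), and without vehicle 2, 6 and 7 it turned to 0.70 (adjusted p = 0.622). The call in relapse tumours was lost without vehicle 2, 6 or 7 or any 1 of the relapse tumours.

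Mmp17 was at 13.6, 10.3 and 6.23 CPM in vehicle 2, 6 and 7 and at 1.01 to 3.22 in the other vehicle tumours. Relapse tumours held 0.677 to 2.81 CPM and stable tumours 0.565 to 1.81 CPM, so vehicle 2, 6 and 7 lay above all of them. The fitted log2 fold change was -1.70 ± 0.53 (adjusted p = 0.0423, edgeR) in relapse and -2.32 ± 0.54 (adjusted p = 0.00961) in stable tumours. Without these 3 it was -0.08 (adjusted p = 0.940) and -0.69 (adjusted p = 0.334). In relapse tumours the call was also lost without vehicle 2, 6 or 7 or relapse 1, 3, 5, 6 or 7 alone.

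Mmp14, the membrane collagenase that activates Mmp2, was at 248 ± 41.8 CPM in vehicle, 272 ± 118 in relapse and 186 ± 55.6 in stable tumours. It was not called in relapse (log2 fold change 0.13, adjusted p = 0.772, edgeR) or in stable tumours (-0.42, adjusted p = 0.248). Mmp15, another membrane enzyme, was at 93.7 ± 20.7, 81.8 ± 25.1 and 78.2 ± 21.9 CPM and was not called. The low membrane members Mmp24 and Mmp25 had group means of 0.533 to 1.01 CPM.

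The gelatinase Mmp2, which cuts denatured and basement membrane collagen, had levels of 57.6, 124 and 583 CPM (lowest, median, highest) in vehicle, 126, 201 and 339 in relapse and 69.3, 129 and 433 in stable tumours. Its 3 highest vehicle tumours were 2, 6 and 7, at 583, 407 and 222 CPM. It was not called in relapse (log2 fold change -0.08 ± 0.47, adjusted p = 0.936, edgeR) or stable tumours (-0.34 ± 0.47, adjusted p = 0.654). Without those 3 tumours the values were 1.22 (adjusted p = 0.108) and 0.96 (adjusted p = 0.180), so the sign turned while no call was made. The gelatinase Mmp9, abundant in neutrophils, ran the other way in these tumours, at 1.19, 0.607 and 2.29 CPM, against 3.70 to 26.6 in the other vehicle tumours. It was at 22.5 ± 20.4 CPM in relapse (1.23, adjusted p = 0.269) and 13.2 ± 6.85 in stable tumours (0.46, adjusted p = 0.688), against 9.57 ± 11.3 in vehicle.

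Mmp13, Mmp12, Mmp1b, Mmp3, Mmp1a, Mmp10, Mmp8, Mmp27, Mmp20 and Mmp7 lie in this order within 427.1 kb of chromosome 9 (chr9:7272514-7699585). They include collagenases (Mmp13, Mmp8), stromelysins (Mmp3, Mmp10), matrilysin (Mmp7) and the macrophage elastase Mmp12. The 7 that were tested gave no call. In this cluster 8 of 10 genes hold TGANTCA on either strand within 250 bases before a RefSeq start, and Mmp8 and Mmp27 do not. TGANTCA is the AP-1 motif of Fos and Jun with any base in the middle, where the usual site has C or G. Mmp20 holds it as TGAATCA. Counted per start and not per gene, it was found before 6.75% of all 32851 starts and 22.9% of the 35 starts of members. It stood before none of the 22 members outside the cluster with an entry. GTAAACA, a FOXO motif, stood before 3.17% of all starts and before Mmp10 and Mmp13 among the members. A match is a description of the letters and shows no binding. Shown here for the shared motif are 5 windows, each of 130 bases on the plus strand before the start and in no annotated exon. Capitals mark the AP-1 sequence, a TATAAA box on the gene's strand where one is present and, in Mmp13, the FOXO motif as read on the other strand. They cover chr9:7272384-7272513 (Mmp13), chr9:7347244-7347373 (Mmp12, at its second annotated start), chr9:7445692-7445821 (Mmp3), chr9:7502212-7502341 (Mmp10) and chr9:7691960-7692089 (Mmp7).
Mmp13: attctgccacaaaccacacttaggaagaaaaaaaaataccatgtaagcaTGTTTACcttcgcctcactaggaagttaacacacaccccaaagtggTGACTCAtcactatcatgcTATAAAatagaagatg
Mmp12: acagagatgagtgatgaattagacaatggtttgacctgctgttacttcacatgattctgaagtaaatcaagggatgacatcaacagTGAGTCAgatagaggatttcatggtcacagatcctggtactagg
Mmp3: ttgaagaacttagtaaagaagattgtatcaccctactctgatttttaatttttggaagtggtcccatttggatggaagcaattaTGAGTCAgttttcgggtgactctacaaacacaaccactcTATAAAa
Mmp10: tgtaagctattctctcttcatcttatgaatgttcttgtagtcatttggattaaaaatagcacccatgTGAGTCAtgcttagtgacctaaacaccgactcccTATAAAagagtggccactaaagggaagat
Mmp7: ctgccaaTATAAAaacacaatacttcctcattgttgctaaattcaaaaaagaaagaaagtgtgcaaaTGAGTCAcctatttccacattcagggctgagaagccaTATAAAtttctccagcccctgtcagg

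The same 4 tumours were low in Mmp12, Mmp10, Mmp13 and Mmp8, 4 of the 7 tested genes of this cluster. In these genes all or 3 of the 4 lay below the other 17 tumours. Mmp12 was at 12.2, 10.5 and 66.0 CPM in vehicle 2, 6 and 7 and at 16.2 in stable 1, below all 17 other tumours, which held 286 to 1690 CPM. Mmp12 was described after its values were seen. Mmp10 was at 0.412, 0.373, 0.799 and 1.13 CPM in these 4, again below the other 17 (2.12 to 18.4). Mmp13 was at 8.19, 9.80 and 12.0 CPM in vehicle 2 and 6 and stable 1, below the others (29.7 to 184), while vehicle 7, at 36.4, was not. Mmp8, the neutrophil collagenase, was below the other 17 (0.653 to 7.56 CPM) in 3 of the 4. Mmp9, on chromosome 2, was below the other 17 in all 4. Mmp3, Mmp7 and Mmp27 did not lie below the others in this way. The 4 values of Mmp3, 19.0 to 57.3 CPM, lay inside the range of the others, 9.69 to 183. Those of Mmp7, at 0.187 to 0.961 CPM, were also low beside the others (median 7.31, range 0.0946 to 24.99). The 0.0946 was that of vehicle 3. Of Mmp27, 1 of the 4 was below the other 17. Summed neutrophil markers in these 4 tumours were 7.09, 9.43, 17.3 and 22.8 CPM, the 4 lowest sums of the 21. The macrophage marker sums, at 449 to 760 CPM, had vehicle 7 as the lowest of all 21, the other 17 tumours being at 460 to 1148 CPM. The part of these cells in the low MMP levels was not tested.

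For the groups, Mmp12 was at 330 ± 343 CPM in vehicle, 678 ± 240 in relapse (log2 fold change 1.04, adjusted p = 0.438, edgeR) and 783 ± 639 in stable tumours (1.25, adjusted p = 0.309). Mmp13, the main collagenase of mouse, was at 58.1 ± 50.1, 72.6 ± 52.3 and 84.8 ± 44.2 CPM. Mmp3, stromelysin 1, was at 31.9 ± 16.8 CPM in vehicle, 61.9 ± 56.2 in relapse (0.95, adjusted p = 0.192) and 54.2 ± 26.7 in stable tumours (0.76, adjusted p = 0.273), with its highest values in relapse 4 (183 CPM) and stable 5 (102 CPM). Mmp7 ranged most widely in vehicle tumours, from 0.0946 CPM in vehicle 3 to 24.99 in vehicle 4, while relapse tumours held 3.08 to 9.16 and stable tumours 0.348 to 12.8. Mmp19, which cuts basement membrane, was at 27.5 ± 20.8, 36.9 ± 15.0 and 36.3 ± 23.9 CPM. The other low members Mmp8, Mmp10, Mmp23, Mmp27 and Mmp28 had group means of 0.395 to 7.31 CPM. In each of these genes the groups overlapped.

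**Figure D4:**
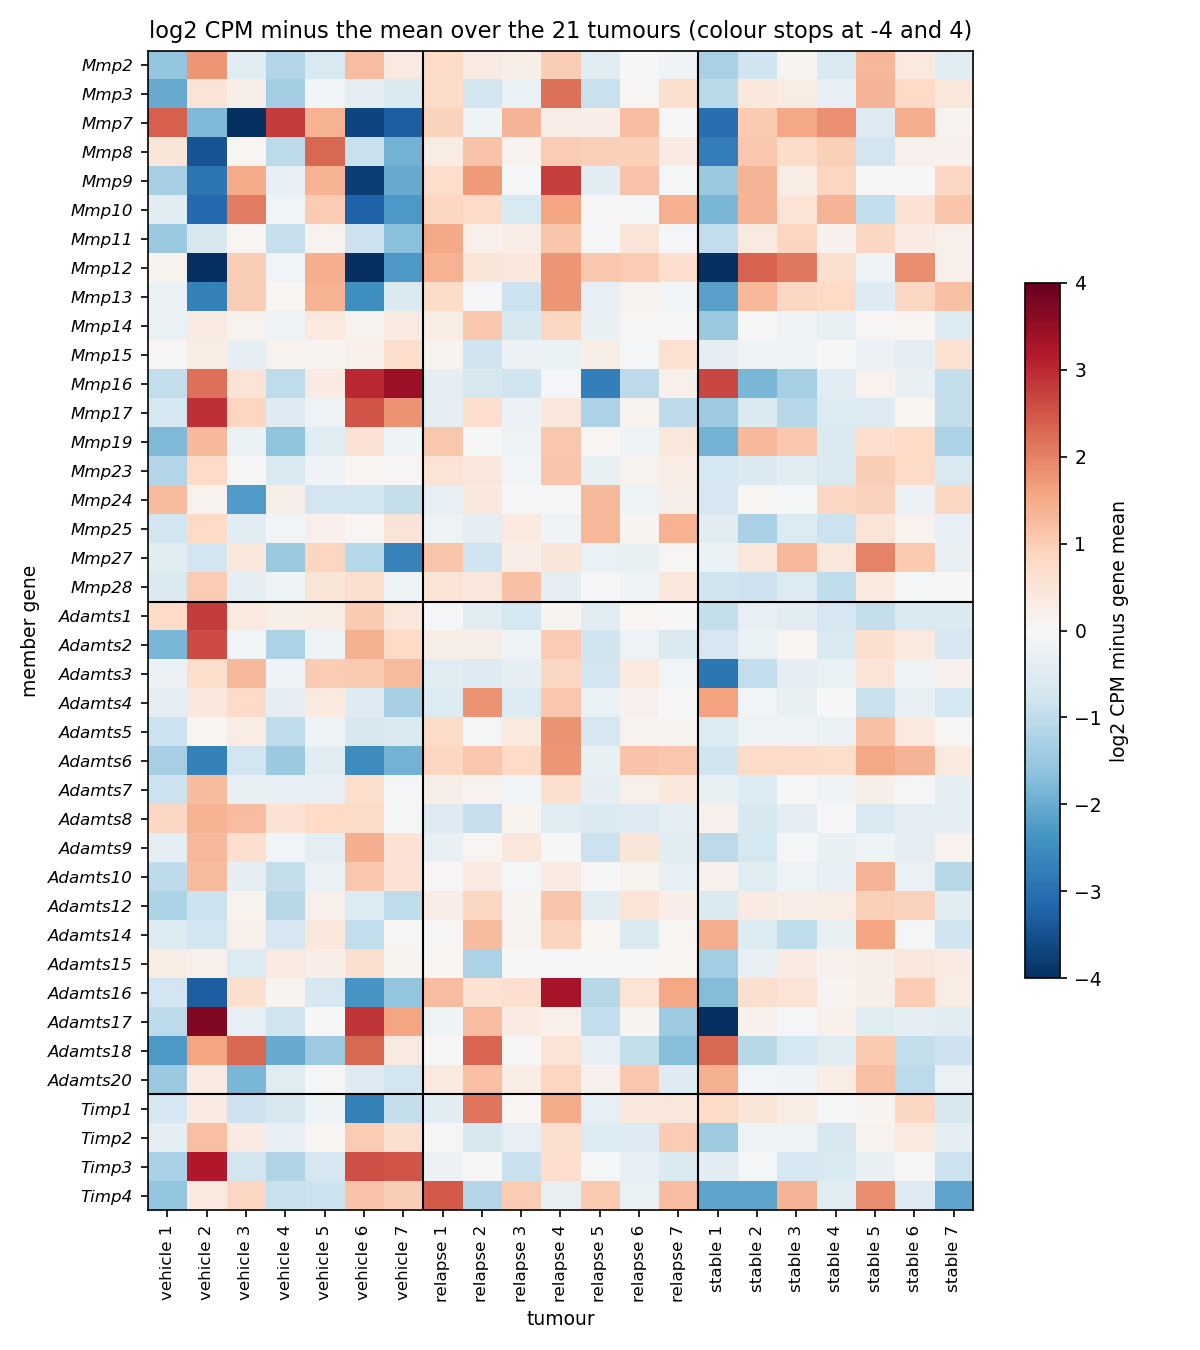
log2 CPM of each tested member (y axis, grouped as MMP, ADAMTS and TIMP genes) minus its mean over the 21 tumours (x axis, grouped by treatment), with red above and blue below the gene's mean. Vehicle 2, 6 and 7 share high Timp3, Mmp16, Mmp17 and Adamts17 and low Mmp12, Mmp10 and Adamts6.

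Of the 4 inhibitors 1 (25%) was called in each comparison with vehicle, Timp1 in relapse and Timp3 in stable tumours. Of all genes 11.2% were called in relapse and 15.1% in stable tumours. Timp1, an inducible inhibitor whose gene lies within Syn1, rose in relapse tumours. Its levels were 1.91, 8.09 and 16.2 CPM (lowest, median, highest) in vehicle, 9.40, 17.4 and 56.6 in relapse and 8.14, 15.7 and 23.1 in stable tumours. All relapse and all stable tumours lay above the vehicle median, and vehicle 2 and 5 lay inside the range of the relapse tumours. Against vehicle the log2 fold change was 1.43 ± 0.42 (adjusted p = 0.0325, edgeR) in relapse and 0.92 ± 0.42 (adjusted p = 0.136) in stable tumours. The call was lost without vehicle 3, 6 or 7 or relapse 2 or 4, after summing the tumours of a code (adjusted p = 0.150), with the code as a random effect in limma (adjusted p = 0.0584) and in a fit of the 2 groups alone (adjusted p = 0.0635). The value was 1.40 (adjusted p = 0.0813) without vehicle 2, 6 and 7.

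Timp3 (chr10:86300412-86349505), which also blocks ADAMTS proteases and sheddases, fell in stable tumours. Vehicle 2, 6 and 7 were at 4008, 2599 and 2461 CPM, where the other 4 vehicle tumours were at 177 to 274. Relapse tumours held 231 to 685 CPM and stable tumours 239 to 423 CPM. The treated tumours thus lay below 3 vehicle tumours and, for the most part, above the other 4. Against vehicle, the log2 fold change was -2.12 ± 0.61 (adjusted p = 0.0250, edgeR) in stable and -1.85 ± 0.60 (adjusted p = 0.0507) in relapse tumours. Without vehicle 2, 6 and 7 it was 0.55 (adjusted p = 0.178) and 0.82 (adjusted p = 0.0670), opposite in sign. The call in stable tumours was lost without vehicle 2, 6 or 7 alone, and in relapse tumours one was made without vehicle 1, 3, 4 or 5. In relapse tumours Timp3 was also called lower with DESeq2's Wald test and with counts summed per code (-1.75, adjusted p = 0.0374, edgeR). Syn3, which shares exon sequence with Timp3 on the opposite strand, was not called (-1.06, adjusted p = 0.109 in relapse; -0.94, adjusted p = 0.136 in stable tumours).

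Timp2, the inhibitor that links Mmp14 to Mmp2, was at 305 ± 132 CPM in vehicle, 233 ± 117 in relapse and 188 ± 67.4 in stable tumours and was not called. Its highest vehicle tumours were 2, 6 and 7, at 505, 445 and 343 CPM. Timp4 was low, at 0.431 ± 0.328, 0.756 ± 0.733 and 0.411 ± 0.581 CPM, and had no read in 3 stable tumours. Per gene width, the summed TIMP level had medians of 139, 153 and 131 RPKM in vehicle, relapse and stable tumours, and reached 1014 RPKM in the highest vehicle tumour. The summed MMP level had medians of 302, 337 and 396 RPKM, with ranges of 215 to 411, 262 to 673 and 100 to 501 RPKM that overlapped. The summed ADAMTS level had medians of 95.04, 90.01 and 75.08 RPKM.

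**Figure D5:**
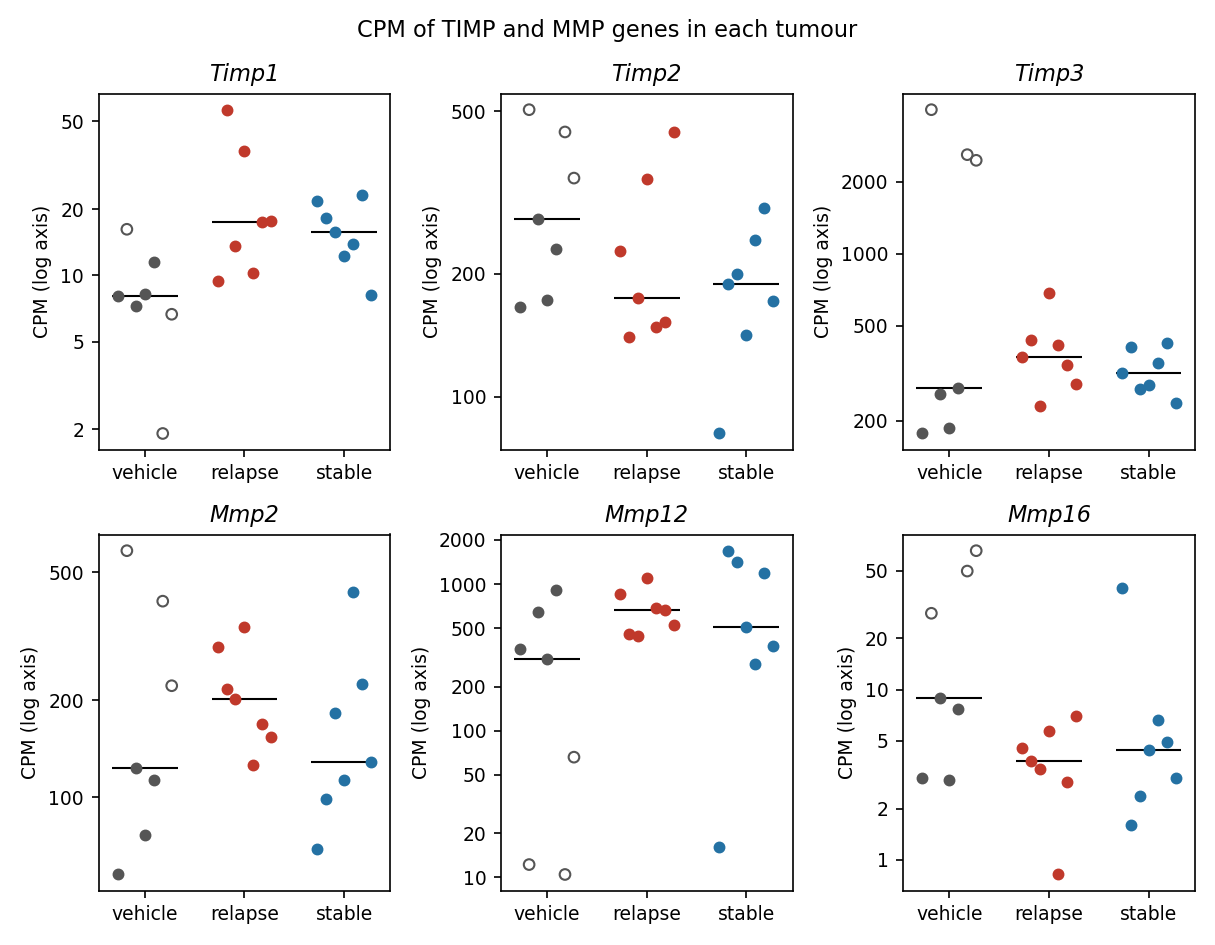
CPM (y axis, log scale) of 3 inhibitors and 3 MMPs in each tumour of the 3 groups (x axis); bars are group medians and open circles are vehicle 2, 6 and 7. The open circles are the highest vehicle tumours for Timp2, Timp3, Mmp2 and Mmp16 and the lowest for Mmp12.

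Relapse and stable tumours, the comparison of the 2 outcomes under the drug, gave no called member. In edgeR's test 3 of 40 members (7.5%) had an unadjusted p under 0.05, beside 4.76% of all genes (751), and DESeq2's Wald test called 0 members and 6 genes. The 3 were Mmp14, Mmp25 and Mmp28, each higher in relapse tumours. For Mmp14 the log2 difference was 0.55 ± 0.25 (adjusted p = 0.990, edgeR), with 5 of 7 relapse tumours above the stable median. No member had groups that did not overlap, beside 0.0823% of all genes (13). The members leaned one way by count: 31 of 40 were above 0 and 9 below, with a median of 0.27 beside -0.01 over all genes. Of all 15792 genes, 7586 were above 0. The members were measured in the same tumours, so their signs are not independent of each other. For all 12 genes called against vehicle the differences between the treated groups had 95% intervals that included 0. They were -0.56 to 0.94 for Adamts6, -0.57 to 0.28 for Adamts8, -0.22 to 1.13 for Adamts1, -0.40 to 0.96 for Mmp11, -0.35 to 1.37 for Timp1 and -0.94 to 1.48 for Timp3. For Adamts16, called in relapse tumours only, the interval of -0.055 to 2.48 came closest to leaving out 0 (difference 1.21, adjusted p = 0.990, edgeR). The other 5 were -2.74 to 0.44 for Mmp16, -0.49 to 1.72 for Mmp17, -0.32 to 0.89 for Adamts9, -0.98 to 1.93 for Adamts17 and -0.50 to 0.69 for Adamts12. That 1 treated group passed the threshold against vehicle and the other did not, as for Timp1, Mmp11 or Timp3, does not by itself show a difference between them. Relapse 5 and stable 5 share a title code, as do relapse 6 and stable 7. Adamts6 was at 16.7 and 60.1 CPM in the former pair and 45.0 and 26.7 CPM in the latter, so the pairs differed in direction.

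The genes that switch these enzymes on, hold them at the cell surface or block them by other means were followed in 26 tested genes of a list of 30. In relapse tumours 2 rose (7.69%, beside 5.42% of all genes) and 3 fell (11.5%, beside 5.8%), with a median log2 fold change of -0.11. Thbs1 and Thbs2, thrombospondins that bind latent growth factors and MMPs, rose, from 408 to 1320 CPM (log2 fold change 1.69 ± 0.28, adjusted p = 0.00208, edgeR) and from 212 to 535 CPM (1.33 ± 0.40, adjusted p = 0.0378). Itgav, an integrin subunit that docks Mmp2, fell (-1.07), as did Bsg, the MMP inducer basigin (-0.64), and Cav1, a component of caveolae (-2.33). In stable tumours Thbs1 rose (1.51) and Bsg (-0.88) and Itgav (-0.80) fell, with a median of -0.27. These were 3.85% and 7.69% of the list, beside 6.9% and 8.16% of all genes. Without vehicle 2, 6 and 7 Thbs1 was called in relapse (1.41, adjusted p = 0.0301) and in stable tumours (1.23, adjusted p = 0.0343), and Bsg in stable tumours (-0.67, adjusted p = 0.0235). No other gene of this list was called there. Thbs2 was then at 0.91 in relapse tumours, Itgav at -0.61 and -0.34 in relapse and stable tumours and Bsg at -0.44 in relapse tumours, with the direction they had before, while Cav1 was at 0.30 in relapse tumours, opposite in sign.

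The ADAMTS-like proteins resemble ADAMTS proteases but have no protease domain. Of 7 tested, 3 were called in relapse and 2 in stable tumours (42.9% and 28.6%, beside 11.2% and 15.1% of all genes). Adamtsl3 rose in relapse tumours (0.93, adjusted p = 0.0424, edgeR), while Papln (-2.32, adjusted p = 0.0138) and Adamtsl2 (-1.44, adjusted p = 0.0297) fell. Papln (-1.98) and Adamtsl2 (-1.35) also fell in stable tumours. The medians were -0.29 and -0.62. Without vehicle 2, 6 and 7 Adamtsl1 was the gene called in relapse tumours (1.73, adjusted p = 0.0301), and none was called in stable tumours. Papln shrank to -0.38 and -0.03 in relapse and stable tumours. Adamtsl2, at -1.54 (adjusted p = 0.0733) and -1.45 (adjusted p = 0.0802), and Adamtsl3 in relapse tumours, at 0.87 (adjusted p = 0.180), stayed about as large. Of 10 ADAM sheddases and relatives, 20% were called in relapse and 10% in stable tumours, beside 11.2% and 15.1% of all genes. Adam19 rose (0.85, adjusted p = 0.0399) and Adamdec1 fell (-2.87, adjusted p = 0.0139) in relapse tumours, and Adamdec1 fell in stable tumours (-2.88). None was called without the 3 vehicle tumours, where Adam19 in relapse tumours was as large (0.87, adjusted p = 0.137) and Adamdec1 shrank to -0.69 and -0.70.

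Of 21 tested matrix substrates, 2 rose and 2 fell in relapse tumours (9.52% each, beside 5.42% and 5.8% of all genes), with a median of -0.51. Comp, a substrate of Adamts12, rose (2.03, adjusted p = 0.00953, edgeR), though it was at 1.42 CPM in relapse and 0.342 in vehicle tumours, and Fn1, fibronectin, rose from 630 to 1682 CPM (1.42, adjusted p = 0.0180). Eln, elastin (-3.04), and Lama3, a laminin chain (-1.26), fell. In stable tumours 0 rose and 6 fell (28.6%, beside 8.16% of all genes): Eln, Lama3, the basement membrane collagens Col4a1 and Col4a2, and the proteoglycans Acan and Dcn, which also stand on the cartilage and fibroblast marker lists, with a median of -0.83. Without vehicle 2, 6 and 7 the medians were 0.59 and 0.38, Eln was at 1.00 (adjusted p = 0.190) and 1.03 (adjusted p = 0.159), and the calls were Comp in relapse and Sdc1 in stable tumours. Fn1 stayed about as large in relapse tumours (1.31, adjusted p = 0.0678). Lama3 kept its sign at -0.54 and -0.86. In stable tumours Col4a1 (0.15), Col4a2 (0.11), Acan (0.093) and Dcn (0.94) turned in sign. No gene of the 4 lists was called between relapse and stable tumours.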

How the data were processed

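Polyadenylated RNA of 21 tumours was sequenced as stranded single-end libraries of 50 nucleotides, per the labels' protocols. The submitters' processing notes name edgeR, Picard 2.9.2, SAMtools 1.3.1, STAR 2.5.2a and the build mm10. Not given in the sources used here: what each did, which annotation served, whether counting used strand and how multi-mapping reads were handled. A single table holds the raw counts per gene that the authors deposited, with a gene width. Because 10202 of its 24028 rows carry an extra leading cell, values were taken from the last 25 cells of a row. Groups came from the treatment labels.

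Counts were filtered with filterByExpr by group (15792 genes kept), and scaled by TMM. All 21 tumours entered 1 fit without covariates in edgeR 4.0.16 under R 4.3.3, using its quasi-likelihood F test. Benjamini-Hochberg adjustment ran over all genes tested (threshold 0.05). CPM are edgeR's with TMM-scaled totals. RPKM are these divided by the table's width, whose definition is not given. The log2 CPM of the heat map have a prior count of 2. Positions are from RefSeq (GRCm38.p6), matched for all 46 members. Promoters were matched for 32 members, and exon overlaps come from GENCODE M21. The procedure was tested on simulated counts. Any pair of tumours within a group differed by a chi-square of at least 14.8 per degree of freedom, so none was taken for a repeat of another library and each was counted once. The lowest values, 14.8, 17.0 and 19.3, were those of the pairs among stable 2, 3 and 4, which share a title code. The measure does not show that tumours sharing a code are independent.

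Members and lists were chosen with earlier results of these data known. Members named one by one were 19 fixed genes, every called member and, chosen after values were seen, Mmp12. Genes of the 4 lists were named where called, at most 4 per list and comparison by lowest p, and beyond that after values were seen. The promoter windows, the motifs and the uncalled members given with a fold change were also chosen after values were seen.

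Alternatives were DESeq2 (1.42.0) size factors or Wald test, no filter, a fit of the 2 groups alone, a replicate block, counts summed per title code, limma (3.58.1) voom with the code as random effect, a fit without vehicle 2, 6 and 7, and leaving out each tumour in turn. A fit that also left out stable 1 was added after seeing the data.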

Additional observations from a re-analysis of the deposited data

Results flagged for a closer look

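In 81 groups of 7 values (27 members named one by one, in 3 groups of tumours), 12 values (14.8%) lay farther from the rest of their group than Dixon's limit on log2 CPM. Chance flags about 1 in 20 independent groups, and these groups share tumours, so they are not independent. Stable 1 accounted for 7: low in Adamts15 (log2 CPM 4.97), Adamts16 (0.44), Adamts17 (-0.91), Mmp11 (2.32), Mmp12 (4.03) and Mmp14 (6.31), and high in Adamts4 (5.34). Its basal and myoepithelial marker sum, 309 CPM, was the lowest of the 21 tumours. Adamts1 was high in vehicle 2 (9.29), Timp1 low in vehicle 6 (1.01), Adamts15 low in relapse 2 (5.09), Mmp16 low in relapse 5 (-0.12) and Mmp15 high in stable 7 (6.98).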

How the results depend on the processing

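In relapse against vehicle 9 members were called, and 5 with the replicate block, 5 with counts summed per title code, 5 with voom and the code as random effect, 3 without vehicle 2, 6 and 7 and 6 when stable 1 was also left out. In stable against vehicle 8 were called, and 5 with the replicate block, 5 with summed counts, 5 with voom, 4 in the fit of 2 groups alone, 3 without vehicle 2, 6 and 7 and 4 when stable 1 was also left out. Leaving out 1 tumour gave 4 to 10 in each, lowest without vehicle 6 or 7 and, in stable tumours, also vehicle 2. Over all genes the 1772 calls in relapse became 987 (block), 955 (summed) and 527 (without vehicle 2, 6 and 7), and the 2378 in stable 1251 (block), 964 (2 groups), 592 (summed) and 847 (without the 3). With stable 1 also out they were 1842 and 2205. The block lost Adamts16, Mmp16, Mmp17 and Timp1 in relapse and Adamts9, Adamts12, Adamts17 and Timp3 in stable tumours, where it called Adamts3 (named after its values were seen). Relapse against stable gave 0 members in every fit run. Replicate numbers did not pair the tumours: correlations of same-numbered tumours ran from -0.258 to 0.358, and the within-code correlation in voom was -0.04.

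Signs turned for Mmp2 in relapse with the block (0.27), voom (0.31), without vehicle 2, 6 and 7 (1.22) and with stable 1 also out (1.20), and in stable tumours in the last 2 fits (0.96, 1.08). In those 2 fits Timp3 was 0.82 and 0.81 in relapse (adjusted p = 0.0670 and 0.0460, edgeR) and 0.55 in both in stable tumours, Adamts17 was 0.62 and 0.61 in relapse and 0.15 and 0.36 in stable, and Mmp9 was -0.25 and -0.081 in stable tumours. Mmp16 was 0.70 in stable tumours without vehicle 2, 6 and 7. With 1 tumour left out, Mmp2 ran from -0.27 to 0.35 in relapse and -0.73 to 0.10 in stable, and Mmp14 from -0.051 to 0.22 in relapse; relapse against stable, Adamts12 ran from -0.046 to 0.23 and Mmp16 from -1.39 to 0.068. The cause was not tested.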
